A study of Mus musculus with 75 samples.

Results

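The gene set described here is 10 tetraspanins, Cd9, Cd37, Cd53, Cd63, Cd81, Cd82, Cd151, Tspan7, Tspan12 and Tspan32, of 41388 mouse gene rows in the count tables of sorted mouse blood-forming cells. All 10 had a row in both tables, and 21 further tetraspanins of a family list of 31 were read for comparison. Tspan7 and Tspan12 were chosen by their values in earlier work on these files, which found them higher in untreated Kmt2c ko HSC than in wt HSC, so genotype values in the 12 untreated HSC libraries are a description without a test. The 75 bulk RNA-seq libraries came from 8-week-old mice in 2 experiments. The untreated experiment held 48 libraries, 4 for each of Kmt2c f/f; Vav-Cre (ko, Kmt2c -/-), Kmt2c f/+; Vav-Cre (het) and wild type (wt) in haematopoietic stem cells (HSC), haematopoietic progenitor cells (HPC), pre-granulocyte-monocyte progenitors (pGM) and granulocyte-monocyte progenitors (GMP). The treatment experiment held 27 libraries of HSC and HPC from ko and wt mice given IL-1 at 0.5 µg per mouse for 3 days or vehicle (PBS) for 3 days, with 4 libraries per HSC group, except 3 for wt given IL-1, and 3 per HPC group. Both ko and het mice carry Vav-Cre, which acts in blood-forming cells, and the wt label names no Cre, so in ko against wt the loss of Kmt2c and the presence of Cre cannot be told apart.

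Tetraspanins are small proteins that cross the plasma membrane several times and gather integrins, adhesion molecules, proteases and signalling receptors into shared membrane patches. Several are known in blood stem cells: Cd9 and Cd63 mark stem-cell-rich fractions, Cd81 and Cd82 have been tied to the return of stem cells to rest, and Cd37 and Cd53 are leukocyte tetraspanins that bind signalling molecules of the immune system. Cd151 pairs with laminin-binding integrins, Tspan32 is a blood-cell tetraspanin that acts with the platelet integrin, Tspan12 strengthens signalling by the receptor Fzd4, and Tspan7 is best known from nerve cells and lies on the X chromosome. Kmt2c encodes a histone methyltransferase that marks enhancers, and IL-1 is an inflammatory cytokine.

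Library totals were 13.3 to 20.8 M counted reads (M for mega) in the untreated experiment and 18.6 to 42.8 M in the treatment experiment. Kmt2c averaged 6.86 to 16 CPM (counts per M counted reads, after TMM scaling) in the untreated ko groups, 12.7 to 35.6 in the het groups and 19.8 to 50.9 in the wt groups. In the library labelled HSC wt IL-1 replicate 1, Kmt2c stood at 14 CPM, within the 12.7 to 16.8 CPM of the IL-1-treated ko HSC and below the other wt HSC libraries of that experiment, so each HSC result that uses it is given with and without it. The 8 stem cell markers summed to 23.7 to 33.3 CPM in ko and het GMP, against 2610 to 3120 CPM in ko, 2320 to 3280 CPM in het and 2290 to 2850 CPM in wt untreated HSC. In the untreated experiment, 8 ko libraries, numbers 1 and 4 of each population, held Xist without Y-linked reads, whereas every het and wt library held Y-linked reads and 11 of these also held Xist (over 10 CPM each). A sex difference therefore runs partly along the genotypes in that experiment. In the treatment experiment 14 libraries held Xist alone, 11 held Y-linked reads alone and 2 held both. Sex-linked reads thus varied between libraries there too, and how they fell over its groups is not given here. The labels do not say whether libraries came from separate animals, so p-values measure the spread between libraries. Because these are bulk samples, fewer expressing cells and less RNA per cell cannot be told apart.

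Across wild-type populations, Cd53 was the member most raised outside HSC. Its level per kb of exon averaged 57.2 CPM per kb in HSC, 647 in HPC, 607 in pGM and 669 in GMP. In single libraries Cd53 had 1190, 1230, 1030 and 1060 CPM in wt HPC, against 84.3, 83.4, 116 and 115 CPM in wt HSC, with no overlap. The difference of HPC over HSC was 11.1-fold (log2 3.47 ± 0.13 SE, edgeR quasi-likelihood test, adjusted p = 2e-13, n = 4 each). Among wt mice given PBS, Cd53 had 735, 825 and 823 CPM in HPC, against 116, 125, 109 and 80.2 CPM in HSC (log2 2.88 ± 0.19, edgeR adjusted p = 4.63e-07). Between HPC, pGM and GMP the Cd53 differences were 0.15 or less on the log2 scale and did not pass (adjusted p 0.336 and 0.649 for adjacent stages).

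Cd37, the other leukocyte tetraspanin, ran the same way on a smaller scale. It averaged 45.5 CPM per kb in wt HSC, 125 in HPC, 92.4 in pGM and 118 in GMP, and was 2.7-fold higher in HPC than in HSC (log2 1.43 ± 0.11, edgeR adjusted p = 3.78e-09). Cd9, Cd63 and Cd81 were lower in HPC than in HSC, by 2.44-fold, 2.12-fold and 1.37-fold (edgeR adjusted p = 1.38e-07, 8.55e-07 and 0.00331). The fourth lower member was Tspan12, which had 0 to 10 reads per wt HPC library against 89 to 110 per wt HSC library. In this fit only wt HSC had Tspan12 above the minimum count of 10 in every library, so HSC alone kept it in the test. The untreated wt HSC were also among the libraries by which Tspan12 was chosen, so its call is a description. Thus 2 of 10 members rose and 4, with Tspan12 among them, fell in wt HPC, where 15.8% of all 13847 genes tested rose and 14.3% fell. With PBS the count was again 2 higher and 4 lower, with Tspan12 again among the 4, against 6.57% higher and 7.89% lower of all genes. There Cd81 (log2 -0.62 ± 0.17, edgeR adjusted p = 0.0281) lost its call without any single one of HPC libraries 1 to 3 or HSC libraries 1 to 3. The Cd81 call was also lost with no filter on low counts, with the replicate number as a block and with Y-linked expression in the fit.

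Cd81, Cd82, Cd63 and Cd151 went different ways at later stages. Cd81, the most abundant of the 10 per kb in wt HSC at 509 CPM per kb, averaged 380 in HPC, 182 in pGM and 175 in GMP. Cd82 averaged 91.1 CPM per kb in HPC and 78.4 in HSC, a difference that did not pass (log2 0.19 ± 0.12, edgeR adjusted p = 0.262), and was 2.57-fold lower in pGM than in HPC (log2 fell by 1.36 ± 0.12, edgeR adjusted p = 2.37e-07). Cd63, a tetraspanin of late endosomes and granules, averaged 98.6 CPM per kb in HSC, 47.4 in HPC, 51.2 in pGM and 186 in GMP. Its values were 748, 741, 620 and 624 CPM in wt GMP and 172, 190, 170 and 222 CPM in wt pGM, a 3.66-fold difference without overlap (log2 1.87 ± 0.12, edgeR adjusted p = 2.07e-10). Cd151 averaged 12, 10.3, 8.77 and 5.2 CPM per kb in HSC, HPC, pGM and GMP, and was lower in pGM and GMP than in HSC (edgeR adjusted p = 0.00967 and 5e-07).

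Of the 10 members, pGM against HSC gave 2 higher and 7 lower (23.9% and 24.7% of all genes), GMP against HSC 3 higher and 6 lower (30.5% and 36.3%), pGM against HPC 0 higher and 3 lower (9.23% and 9.32%), and GMP against pGM 2 higher and 1 lower (15.9% and 22.0%). For the 0 higher in pGM against HPC, DESeq2 also called the same 3 genes, Cd37, Cd81 and Cd82, and no other member had an unadjusted edgeR p under 0.05. The members' median log2 difference of GMP over HSC was -1.205, against a median over all genes of -0.118. This median and the 7 and 6 lower against HSC include Tspan7 and Tspan12, whose choice used the untreated wt HSC. Tspan12 was kept in these tests by HSC alone.

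**Figure D1:**
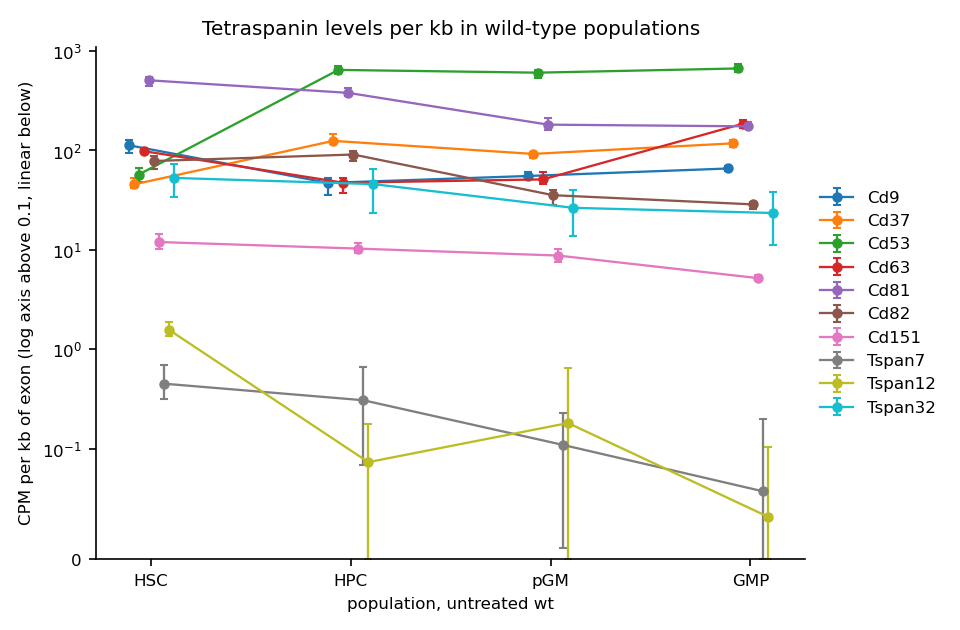
Level of each tetraspanin in CPM per kb of exon (vertical axis, logarithmic above 0.1 and linear below) in untreated wt HSC, HPC, pGM and GMP; points are means of 4 libraries and bars run from the lowest to the highest library. Cd53 goes up between HSC (57.2) and HPC (647), Cd63 between pGM (51.2) and GMP (186), and Tspan7 and Tspan12 stay below 2 CPM per kb in all 4 populations.

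Ordered by level per kb, Cd81 led in wt HSC and stood apart from Cd9 (113 CPM per kb) and Cd63 (98.6), whose ranges overlapped. Cd82 (78.4), Cd53 (57.2), Tspan32 (53) and Cd37 (45.5) followed, each overlapping its neighbour, and then Cd151 (12), Tspan12 (1.58) and Tspan7 (0.451), each apart from the next. In HPC, pGM and GMP Cd53 led, apart from the next gene, which was Cd81 in HPC and pGM and Cd63 in GMP. Lengths are of the union of exons in GENCODE M21, so a gene with an unused long exon is set too low on this scale.

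Tspan12 and Tspan7 had their highest levels in HSC. Tspan12 reached at most 2.13 CPM in any HPC, pGM or GMP library, against 4.46 to 32.5 CPM over the 12 untreated HSC libraries. In wt mice given PBS, Tspan12 was counted at 0 to 2 reads per HPC library, against 69 to 244 reads per HSC library, and the difference passed (edgeR adjusted p = 9.81e-06). These HPC counts lay under the minimum count of 10, so the HSC libraries alone kept the gene in this test. Tspan7 reached at most 6.72, 1.61 and 1.4 CPM in untreated HPC, pGM and GMP, against 2.23 to 18.3 CPM in untreated HSC. Its lower level in wt pGM and GMP than in wt HSC passed (edgeR adjusted p = 0.0377 and 0.00611), at 1 to 28 and 0 to 17 reads per library against 39 to 96. The pGM call was lost with no filter on low counts, without HSC library 1 or 4 and without pGM library 1, 3 or 4. The untreated wt HSC of such tests are among the libraries by which Tspan7 and Tspan12 were chosen. Neither gene had enough reads to be tested between genotypes in pGM or GMP, nor Tspan12 in untreated HPC.

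The 3 genes with the largest ko against wt differences in untreated HSC were Cd53, Tspan12 and Tspan7, and their upstream sequences are shown so that the unlike base composition of the start regions can be seen beside the values. Cd53 lies at chr3:106759921-106790149 on the minus strand, Tspan7 at chrX:10485158-10596605 on the plus strand and Tspan12 at chr6:21771395-21852515 on the minus strand (GRCm38, GENCODE M21). The sequences are the 250 bases before the RefSeq start (GRCm38.p6), at chr3:106790150-106790399, chrX:10484866-10485115 and chr6:21852534-21852783, read 5′ to 3′ on the gene's strand, with CG dinucleotides in capitals.
Cd53: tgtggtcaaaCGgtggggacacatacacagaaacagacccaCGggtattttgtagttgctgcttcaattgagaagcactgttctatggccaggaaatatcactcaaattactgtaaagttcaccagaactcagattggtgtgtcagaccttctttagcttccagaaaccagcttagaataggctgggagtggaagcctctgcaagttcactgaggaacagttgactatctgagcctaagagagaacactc
Tspan7: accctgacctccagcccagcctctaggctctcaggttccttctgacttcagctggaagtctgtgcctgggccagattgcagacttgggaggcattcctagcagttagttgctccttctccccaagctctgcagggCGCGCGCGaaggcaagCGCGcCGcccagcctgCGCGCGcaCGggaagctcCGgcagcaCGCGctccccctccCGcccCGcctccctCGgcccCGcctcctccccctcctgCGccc
Tspan12: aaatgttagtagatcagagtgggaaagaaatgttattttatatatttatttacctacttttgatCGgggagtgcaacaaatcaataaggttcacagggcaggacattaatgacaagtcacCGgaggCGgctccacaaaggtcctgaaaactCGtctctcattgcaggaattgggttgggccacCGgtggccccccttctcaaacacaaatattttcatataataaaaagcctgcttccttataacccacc
The Cd53 window held 2 CG dinucleotides and 45.2% G or C, the Tspan7 window 19 and 69.2%, and the Tspan12 window 5 and 42%. Over 32851 RefSeq windows of this length the median was 6 CG dinucleotides, and 19.7% held 19 or more while 29% held 2 or fewer. TGACTCA, an AP-1 motif, searched on both strands, was in none of the 3 windows, and 4.5% of all windows held at least 1. GGAA, the core of the ETS motif, on either strand, occurred 4, 4 and 3 times in the Cd53, Tspan7 and Tspan12 windows, and 93.4% of all windows held at least 1. These matches are of letters only.

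In untreated HSC, Cd53 was lowest in ko, higher in het and highest in wt. Het and wt also differ in Cre, and ko libraries 1 and 4 differ from all het and wt libraries in Y-linked reads. It had 12.7, 15.9, 11.7 and 40.6 CPM in ko HSC, 46.2, 53.4, 50.9 and 66 CPM in het HSC, and 84.3, 83.4, 116 and 115 CPM in wt HSC. No ko library reached the lowest het library and no het library reached the lowest wt library. The fitted ko against wt difference was 4.99-fold lower (log2 -2.32), het against wt 1.85-fold lower (log2 -0.89) and ko against het 2.69-fold lower (log2 -1.43), the last between mice that both carry Cre. Ko library 4 was the highest of the ko libraries, and without it the ko against wt value was -2.92 on the log2 scale, against -2.74 with Y-linked expression in the fit. In these libraries the macrophage markers summed to 18.6 to 36.9 CPM in ko, 16.4 to 67 CPM in het and 66.2 to 133 CPM in wt HSC. The stromal and endothelial markers summed to 124 to 126 CPM in ko, 201 to 245 CPM in het and 228 to 306 CPM in wt HSC. The megakaryocyte and platelet markers summed to 218 to 306 CPM in ko, 250 to 326 CPM in het and 332 to 371 CPM in wt HSC. The T and NK cell markers summed to 59.4 to 96.2 CPM in ko, 79 to 139 CPM in het and 106 to 145 CPM in wt HSC. The part of these lists in the Cd53 values was not tested.

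Tspan12 ran in the opposite order in the same libraries. It had 22.7, 32.5, 19.5 and 22.1 CPM in ko HSC, 8.06, 8.92, 7.9 and 9.33 CPM in het HSC and 4.46, 6.28, 5.67 and 4.53 CPM in wt HSC, again without overlap (log2 2.2 for ko and 0.7 for het, each against wt). Tspan7 had 18.3, 8.4, 13.1 and 15.8 CPM in ko HSC, 14, 10.6, 10.7 and 7.36 CPM in het HSC and 3.15, 2.23, 2.49 and 4.89 CPM in wt HSC. Here ko and het overlapped each other and both lay above wt (log2 2.11 and 1.71 against wt). The highest ko values of Tspan7, 18.3 and 15.8 CPM, were those of libraries 1 and 4, which held Xist without Y-linked reads. Over all alternatives, Y-linked expression in the fit among them, the ko against wt difference of Tspan7 was 1.87 to 2.4. The other 7 members differed between ko and wt HSC by -0.58 (Cd82) to 1.29 (Cd151) on the log2 scale. Cd151 had 114, 38, 31.1 and 143 CPM in ko HSC, 152, 38.5, 32.3 and 34.8 CPM in het HSC and 28.3 to 40.1 CPM in wt HSC, so 3 libraries stood far above the rest. The ko libraries among them, 1 and 4, were those with Xist and without Y-linked reads, and with Y-linked expression in the fit the ko against wt difference of Cd151 was 0.33. The highest of the 3, het library 1, had Ddx3y at 53.3 CPM and Xist at 1.57 CPM.

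**Figure D2:**
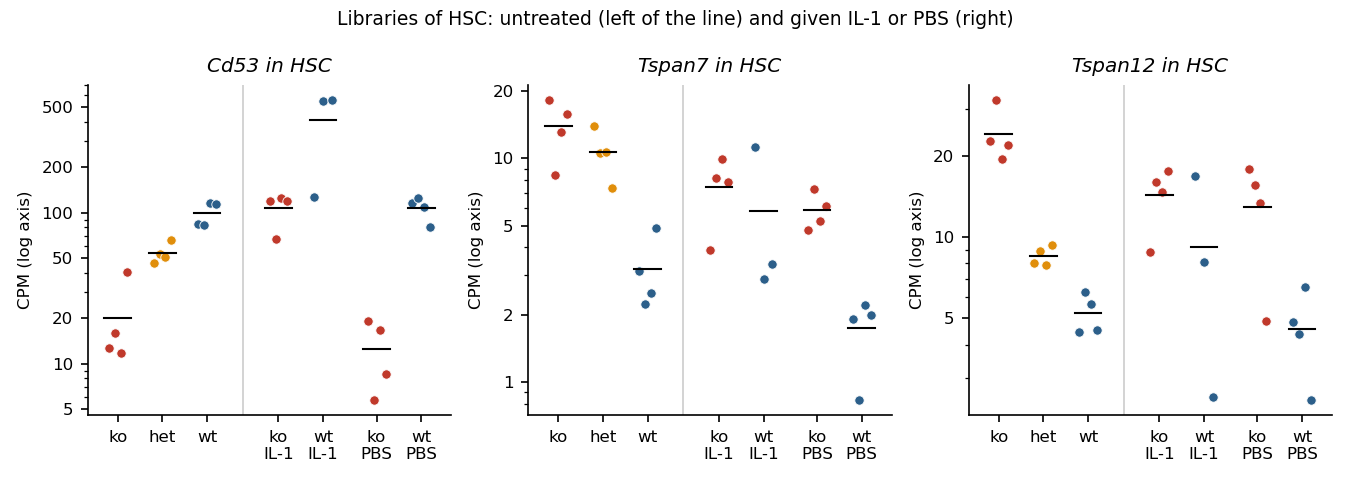
CPM (logarithmic axis) of Cd53, Tspan7 and Tspan12 in every HSC library; points are libraries, bars are group means, and the grey line parts the untreated from the treatment experiment. Cd53 lies at 5.75 to 19.3 CPM in ko and 80.2 to 125 CPM in wt HSC given PBS, while Tspan7 lies above wt in ko HSC in both the untreated and the PBS libraries.

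The HSC given PBS were separate libraries from those that the choice of genes used. Cd53 had 19.3, 5.75, 16.8 and 8.54 CPM in ko HSC, against 116, 125, 109 and 80.2 CPM in wt HSC. It was 8.57-fold lower in ko, with a wide gap between the groups (log2 -3.1 ± 0.42 SE, edgeR adjusted p = 0.00218, n = 4 each). Tspan7 had 4.79, 7.32, 5.27 and 6.14 CPM in ko HSC, against 1.91, 0.832, 2.22 and 1.99 CPM in wt HSC. Those groups did not overlap either, but the difference did not pass (log2 1.75 ± 0.42, edgeR adjusted p = 0.0626), whereas it passed with DESeq2 and, by edgeR, with no filter on low counts. Over all alternatives, Y-linked expression in the fit among them, the Tspan7 difference was 1.52 to 1.91 on the log2 scale. Tspan12 had 18, 15.7, 13.4 and 4.91 CPM in ko HSC, against 4.84, 4.36, 6.54 and 2.49 CPM in wt HSC, with ko library 4 inside the wt range (log2 1.5 ± 0.46, edgeR adjusted p = 0.173, and 0.0359 with DESeq2). Of the 10 members 1, Cd53, passed, in the lower direction, where 0.562% of all 16538 genes were lower and 0.236% higher.

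Marker lists of other cell types also differed between genotypes in these libraries, not all in the direction of Cd53. The 9 macrophage markers summed to 21.8 to 38.1 CPM in ko and 84.3 to 105 CPM in wt HSC given PBS, with 2 of 9 lower and none of them at 0 in all libraries of a group. The 8 stromal and endothelial markers summed to 105 to 141 CPM in ko and 251 to 273 CPM in wt HSC, with 2 of 8 lower, and their part in the Cd53 difference was not tested. The 10 megakaryocyte and platelet markers summed to 168 to 223 CPM in ko and 211 to 310 CPM in wt HSC, with 0 of 9 tested passing. The 6 mast cell and basophil markers summed to 0.353 to 2.47 CPM in ko and 4.15 to 10.2 CPM in wt HSC, with 0 of 3 tested passing. The 8 neutrophil markers went the other way, at 415 to 647 CPM in ko and 321 to 404 CPM in wt HSC, with 0 of 8 passing. The part of these lists in the Cd53 difference was not tested either. Cd48, which HSC are known to lack and HPC to carry, had 247 to 365 CPM in wt HPC given PBS, against 5.42, 9.52, 5.83 and 13.7 CPM in ko and 14.2, 9.08, 10.6 and 3.32 CPM in wt HSC given PBS. Cd48 thus overlapped between the genotypes. With Y-linked expression in the fit the Cd53 difference was larger, at -3.29 on the log2 scale (edgeR adjusted p = 0.00666).

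With IL-1, Cd53 rose in ko HSC to levels beside those of wt HSC given PBS (80.2 to 125 CPM). Cd53 had 120, 66.5, 126 and 120 CPM in ko HSC given IL-1, against 19.3, 5.75, 16.8 and 8.54 CPM in ko HSC given PBS. This was 8.66-fold higher, with every IL-1 library above every PBS library (log2 3.11 ± 0.42, edgeR adjusted p = 0.00205). Cd53 was the 1 member of 10 that passed, among 0.145% of all genes higher and 0.0665% lower. The macrophage markers, which moved with Cd53 between genotypes, summed to 18.7 to 27.1 CPM in ko HSC given IL-1 and 21.8 to 38.1 CPM in ko HSC given PBS. The HSC markers summed to 1430 to 1730 CPM with IL-1 and 1400 to 2230 CPM with PBS. The megakaryocyte and platelet markers summed to 237 to 316 CPM with IL-1 and 168 to 223 CPM with PBS, without overlap, and 0 of 9 tested passed. Their part in the Cd53 difference was not tested.

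In wt HSC, Cd53 had 127, 553 and 562 CPM with IL-1, against 116, 125, 109 and 80.2 CPM with PBS. The low value of 127 is the library labelled HSC wt IL-1 replicate 1, whose Kmt2c was at the ko level. With it the difference did not pass (log2 1.98 ± 0.42, edgeR adjusted p = 0.0607), and without it Cd53 was higher with IL-1 (log2 2.41 ± 0.35, edgeR adjusted p = 0.00509). Of the 10 members 0 passed in wt HSC with all libraries (0.157% of all genes higher and 0.0423% lower), 4 had an unadjusted edgeR p under 0.05 and DESeq2 called 2, Cd53 and Tspan7. Marker sums also moved without overlap between all IL-1 and all PBS libraries of wt HSC. The HSC markers summed to 1430 to 1510 CPM with IL-1 and 1790 to 2140 CPM with PBS. Macrophage markers summed to 26.9 to 77.2 and 84.3 to 105 CPM, and neutrophil markers to 541 to 712 and 321 to 404 CPM. In these lists 0 genes passed, and their part in the Cd53 difference was not tested.

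Ko against wt HSC after IL-1, Cd53 was at -1.97 ± 0.42 on the log2 scale and did not pass (edgeR adjusted p = 0.122). Without the library labelled HSC wt IL-1 replicate 1 it was lower in ko (log2 -2.39 ± 0.35, edgeR adjusted p = 0.00182). No member and no gene passed in that comparison with all libraries (0.00% of all genes), 2 members had an unadjusted edgeR p under 0.05 and DESeq2 called 1, Cd53. The difference of the Cd53 response to IL-1 between ko and wt HSC was 1.13 ± 0.58 on the log2 scale and did not pass (edgeR adjusted p = 0.847), nor without that library (0.71 ± 0.47, adjusted p = 0.85). For that difference 0 members passed (0.00% of all genes), 1 had an unadjusted edgeR p under 0.05 and DESeq2 called 0.

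By edgeR with the filter on low counts, Tspan7 and Tspan12 gave no called response to IL-1. In ko HSC, Tspan7 had 3.89, 8.16, 9.95 and 7.83 CPM with IL-1 and 4.79, 7.32, 5.27 and 6.14 CPM with PBS (log2 0.34 ± 0.4, edgeR adjusted p = 0.812). Tspan12 had 8.84, 16, 14.8 and 17.6 CPM with IL-1 and 18, 15.7, 13.4 and 4.91 CPM with PBS. Both pairs of groups overlapped. In wt HSC given IL-1, Tspan7 had 11.2, 2.89 and 3.36 CPM and Tspan12 16.9, 8.1 and 2.55 CPM, and in each case the highest was the library labelled HSC wt IL-1 replicate 1. With that library, the wt Tspan7 difference of IL-1 over PBS was 1.77 ± 0.45 on the log2 scale and without it 0.87 ± 0.4 (edgeR adjusted p = 0.132 and 0.564). With all libraries it passed with DESeq2 (adjusted p = 0.0166) and, by edgeR, with no filter on low counts (0.0165). The wt Tspan12 difference of IL-1 over PBS was 1.06 ± 0.48 with that library and 0.28 ± 0.48 without it (edgeR adjusted p = 0.603 and 0.913). Ko against wt after IL-1, the Tspan7 difference was 0.32 ± 0.44 on the log2 scale with that library and 1.23 ± 0.43 without it, and that of Tspan12 0.6 ± 0.48 and 1.37 ± 0.51 (edgeR adjusted p 0.239 to 0.856 over these 4 tests).

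In untreated HPC, the call fell on Cd82, a tetraspanin known as a suppressor of metastasis. Cd82 (chr2:93419111-93463140, minus strand) had 172, 172, 163 and 147 CPM in ko HPC, 177, 222, 222 and 235 CPM in het HPC and 299, 296, 237 and 263 CPM in wt HPC. Ko HPC lay below het and wt HPC in every library and were 1.68-fold lower than wt (log2 -0.75 ± 0.14, edgeR adjusted p = 0.00952), and the het group lay between. With Y-linked expression in the fit it no longer passed (adjusted p = 0.105). Cd82 was the 1 called member of 9 tested, in the lower direction, where 0.851% of all 13276 genes were lower and 0.249% higher. Marker lists moved in the same libraries. The 8 HSC markers summed to 610 to 756 CPM in ko and 821 to 1070 CPM in wt HPC, with 1 of 7 tested lower. The megakaryocyte and platelet markers summed to 27 to 43.2 CPM in ko, with Gp5 and Gp6 at 0, and 61.2 to 100 CPM in wt HPC, with Gp6 at 0 and 1 of 7 tested lower. The 8 neutrophil markers summed to 3390 to 7570 CPM in ko and 2560 to 3030 CPM in wt HPC, with 1 of 8 higher, and the 7 T and NK cell markers to 319 to 405 CPM in ko and 559 to 823 CPM in wt, with 1 of 2 tested lower. Their part in the Cd82 difference was not tested.

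By edgeR fitted within each population, with all libraries, the Cd82 difference did not pass in the other sets of libraries. In untreated pGM it had 62.9, 85.9, 82.7 and 54.1 CPM in ko and 112, 108, 85.5 and 121 CPM in wt (log2 -0.57 ± 0.15, edgeR adjusted p = 0.0598). There it passed with DESeq2 (adjusted p = 0.0101), in 1 edgeR fit of all libraries (0.0273) and without ko library 2 or wt library 3 (0.0336 and 0.0338). In HSC given PBS it had 89.8, 135, 97.9 and 100 CPM in ko and 140, 141, 182 and 139 CPM in wt, with no overlap (log2 -0.51 ± 0.2, adjusted p = 0.38 by edgeR). In HPC given IL-1 it had 97.8, 75.8 and 63 CPM in ko and 126, 114 and 113 CPM in wt (log2 -0.58 ± 0.19, edgeR adjusted p = 0.494). In HSC given IL-1 the Cd82 difference was -0.57 ± 0.21 on the log2 scale (edgeR adjusted p = 0.465). Without the library labelled HSC wt IL-1 replicate 1 it was -0.79 ± 0.21 (edgeR adjusted p = 0.0893). In HPC given PBS, Cd82 had 101, 118 and 116 CPM in ko and 127, 123 and 170 CPM in wt (log2 -0.33 ± 0.19, edgeR adjusted p = 0.635). In GMP it had 85.5, 66.2, 99.8 and 64 CPM in ko and 78.1, 86.6, 90.7 and 90 CPM in wt, which overlapped (log2 -0.12 ± 0.17, edgeR adjusted p = 0.859).

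The Cd53 difference between ko and wt HPC did not pass. Cd53 had 815, 811, 789 and 690 CPM in ko HPC, 964, 829, 832 and 1040 CPM in het HPC and 1190, 1230, 1030 and 1060 CPM in wt HPC, so ko lay below het and wt, and het and wt overlapped. The ko against wt difference was -0.54 ± 0.13 on the log2 scale (edgeR adjusted p = 0.0535), and DESeq2 called it. In HPC given PBS, Cd53 had 504, 524 and 631 CPM in ko and 735, 825 and 823 CPM in wt (log2 -0.53 ± 0.16, edgeR adjusted p = 0.282). In HPC given IL-1 it had 642, 869 and 895 CPM in ko and 1000, 1220 and 1140 CPM in wt (log2 -0.49 ± 0.16, edgeR adjusted p = 0.505). In GMP the ko and wt values overlapped, at 820 to 1470 CPM in ko and 1080 to 1310 CPM in wt (log2 -0.08 ± 0.18).

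In untreated pGM, Cd9 (chr6:125460266-125494791, minus strand) was the member that passed. It had 86.9, 87.1, 74.9 and 77.7 CPM in ko pGM, 98.6, 109, 96.8 and 107 CPM in het pGM and 107, 125, 115 and 107 CPM in wt pGM. Every ko library lay below every het and wt library, and the ko against wt difference was 1.38-fold lower (log2 -0.47 ± 0.1, edgeR adjusted p = 0.0158). The call was lost without ko library 3, without wt library 2 or 3, and in 1 fit of all libraries (edgeR adjusted p = 0.559). Of the 8 members tested 1 was lower, where 1.53% of all genes were lower and 0.410% higher. Markers of other cells moved in the same pGM libraries. The 6 mast cell and basophil markers summed to 197 to 278 CPM in ko and 498 to 696 CPM in wt pGM, with 3 of 6 lower. The megakaryocyte and platelet markers summed to 45.9 to 104 CPM in ko and 119 to 128 CPM in wt pGM, with 2 of 7 tested lower, and the T and NK cell markers to 433 to 564 CPM in ko and 858 to 1070 CPM in wt, with 1 of 2 tested lower. The 7 erythroid markers summed to 356 to 403 CPM in ko and 154 to 255 CPM in wt pGM, with 0 of 7 passing. Their part in the Cd9 difference was not tested. In HSC and GMP the Cd9 values of ko and wt overlapped, with 203 to 333 CPM in ko and 191 to 265 CPM in wt untreated HSC and 58.8 to 177 CPM in ko and 128 to 144 CPM in wt GMP.

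**Figure D3:**
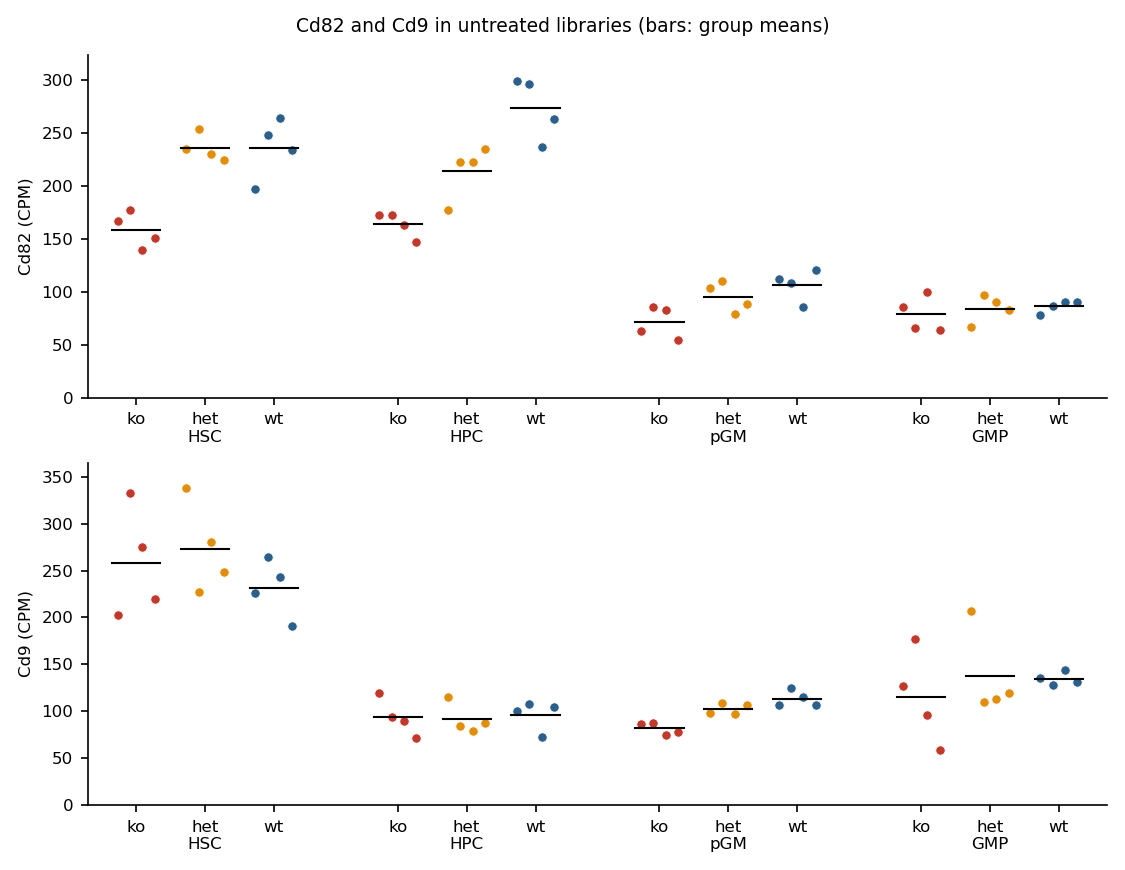
CPM of Cd82 (upper panel) and Cd9 (lower panel) in the 48 untreated libraries, with ko, het and wt side by side in each population; points are libraries and bars are means of 4. Cd82 in ko HPC (147 to 172 CPM) lies below wt HPC (237 to 299 CPM), and Cd9 in ko pGM (74.9 to 87.1 CPM) lies below wt pGM (107 to 125 CPM).

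The remaining genotype comparisons gave no called member by edgeR or DESeq2. In GMP, 0 of 8 members passed for ko against wt (0.199% of all genes higher and 0.356% lower), 0 for het against wt (0.00828% and 0.00%) and 0 for ko against het (0.00% and 0.0166%), and none had an unadjusted edgeR p under 0.05. For het against wt, 0 of 9 passed in HPC (0.00753% and 0.00%) with 4 at an unadjusted p under 0.05, and 0 of 8 in pGM (0.00773% and 0.00773%) with 0. For ko against het, 0 of 9 passed in HPC (0.0226% and 0.173%) with 2 at an unadjusted p under 0.05, and 0 of 8 in pGM (0.100% and 0.464%) with 4, Cd9, Cd37, Cd63 and Cd82. In HPC given PBS, 0 of 10 passed for ko against wt (0.0878% and 0.169%) with 2 at an unadjusted p under 0.05, and in HPC given IL-1, 0 of 10 (0.0502% and 0.150%) with 3.

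IL-1 gave no called member in HPC. For IL-1 against PBS, 0 of 10 passed in ko HPC (0.295% of all genes higher and 0.138% lower) and 0 of 10 in wt HPC (0.702% and 0.244%), each with 3 at an unadjusted edgeR p under 0.05, and 0 by DESeq2. For the difference of the 2 responses 0 of 10 passed (0.00%), with 0 at an unadjusted p under 0.05 and 0 by DESeq2. Cd53 had 642, 869 and 895 CPM with IL-1 against 504, 524 and 631 CPM with PBS in ko HPC, and 1000, 1220 and 1140 CPM against 735, 825 and 823 CPM in wt HPC (log2 0.54 ± 0.16 and 0.5 ± 0.16, edgeR adjusted p = 0.264 and 0.206). With the replicate number as a block the wt value passed. Cd63 (chr10:128900989-128912822, plus strand) had 140, 89.7 and 83 CPM with IL-1 and 210, 187 and 223 CPM with PBS in wt HPC, with no overlap (log2 -0.99 ± 0.32, edgeR adjusted p = 0.242). In ko HPC it had 235, 90.6 and 86.6 CPM with IL-1 and 232, 209 and 233 CPM with PBS, and without the first of these IL-1 libraries the lower level passed. The 8 HSC markers summed to 258 to 352 CPM with IL-1 and 522 to 832 CPM with PBS in wt HPC, with 1 of 8 lower. In ko HPC these sums were 265 to 331 CPM and 502 to 592 CPM, with 0 of 8 passing. The macrophage markers summed to 170 to 193 CPM with IL-1 and 104 to 157 CPM with PBS in wt HPC, and overlapped in ko HPC. Their part in the Cd53 and Cd63 differences was not tested.

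**Figure D4:**
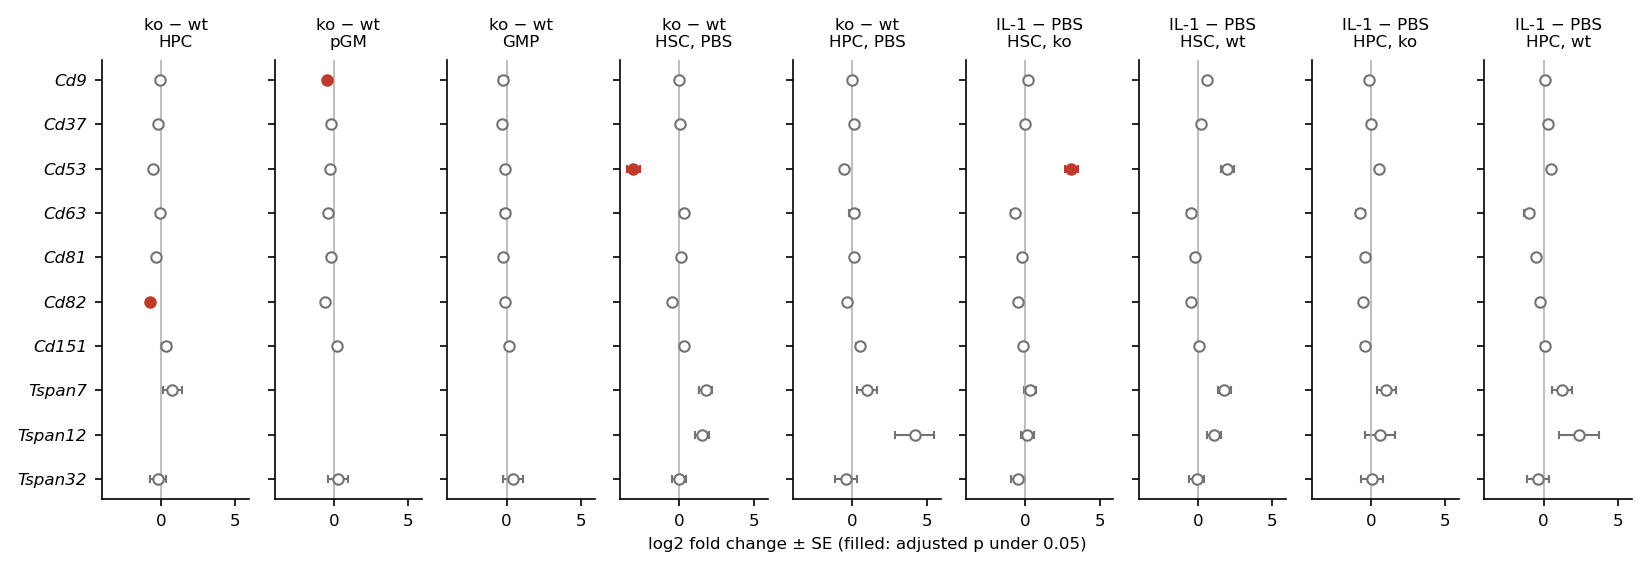
Log2 fold change with its standard error (horizontal axis) of each tetraspanin (rows) in 9 tested comparisons (panels); filled points passed at an adjusted p under 0.05, open points did not, and untested genes are blank. The filled points are Cd82 in HPC, Cd9 in pGM, Cd53 in HSC given PBS (-3.1) and Cd53 with IL-1 in ko HSC (3.11).

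Cd37 (chr7:45233632-45239115, minus strand), Cd81 (chr7:143052739-143067934, plus strand) and Cd151 (chr7:141467392-141471473, plus strand) passed in no genotype or IL-1 comparison. Cd81 had 1560, 1550, 1560 and 1380 CPM in ko HSC, 1400, 1780, 1630 and 1560 CPM in het HSC and 1450, 1570, 1570 and 1280 CPM in wt HSC, which overlapped. In HSC given PBS, Cd37 had 95.1 to 140 CPM in ko and 98.4 to 143 CPM in wt (log2 0.03 ± 0.17). The standard deviation over the libraries of a group had a median of 11% of the mean for Cd81, 12.3% for Cd37 and 13% for Cd82 over 20 groups, and 54.7% for Tspan32.

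Tspan32 (chr7:143005046-143019644, plus strand), the neighbour of Cd81, varied widely between libraries of a group, in a pattern that ran with the library numbers. This pattern was picked out after the values had been seen. In GMP it had 279, 119, 329 and 66.8 CPM in ko, 504, 96.4, 345 and 76.1 CPM in het and 204, 240, 70.6 and 72.4 CPM in wt, in the order of replicate numbers 1 to 4. In pGM it had 292, 97.3, 353 and 64.1 CPM in ko, 340, 126, 364 and 83.3 CPM in het and 235, 249, 86.6 and 90.9 CPM in wt. The same 6 combinations of genotype and number lay above 200 CPM in both populations, and the other 6 lay at 66.8 to 119 CPM in GMP and 64.1 to 126 CPM in pGM. Over the 12 groups of population and genotype, 11 had their 2 highest libraries at the numbers found in GMP, the exception being ko HSC, whose 4 libraries lay at 255 to 306 CPM. These high numbers did not follow Xist, which marked numbers 1 and 4 of the ko libraries. The antisense gene Tspan32os, which shares 271 exon bases with Tspan32, was at most 1.6 CPM in any HSC or HPC library. Its level in pGM and GMP is not given here. With all libraries and no block, Tspan32 passed in no comparison by edgeR. In wt GMP against HSC (log2 -1.18 ± 0.53, edgeR adjusted p = 0.0651) it passed with DESeq2 (0.0257) and by edgeR without GMP library 2 (0.0328). Its standard errors were 0.47 to 1.05 on the log2 scale.

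**Figure D5:**
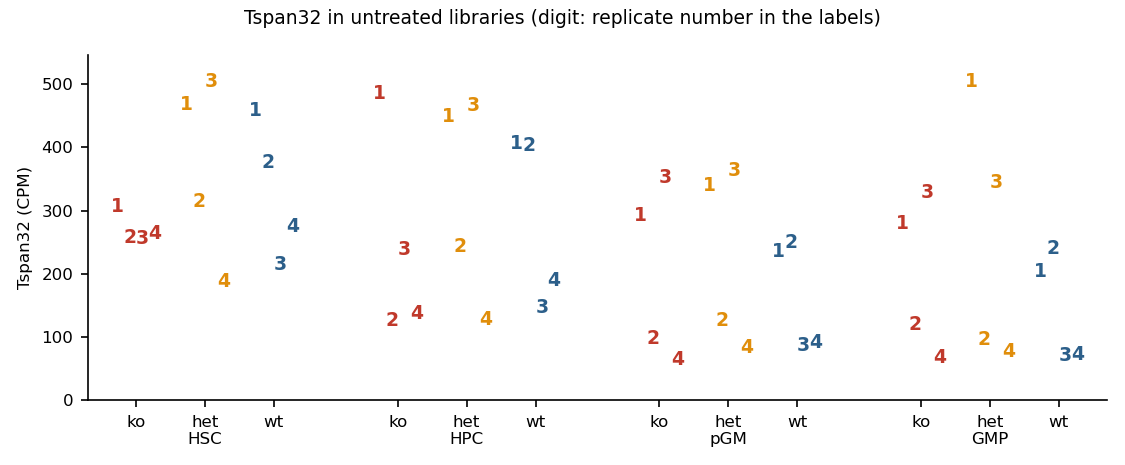
Tspan32 CPM in the 48 untreated libraries, drawn as the replicate number of each library, with ko, het and wt side by side in each population. In GMP and pGM numbers 1 and 3 of ko and het and numbers 1 and 2 of wt lie above 200 CPM and the other numbers lie at 64.1 to 126 CPM.

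Of the 21 other tetraspanins, Tspan2 was the one lower in ko in several populations. It was lower in ko than in wt HPC (log2 -0.95 ± 0.21, edgeR adjusted p = 0.0277), pGM (-0.85 ± 0.15, 0.00424), GMP (-0.78 ± 0.16, 0.0425) and HSC given PBS (-2.59 ± 0.54, 0.0277), and lower in ko than in het HPC (-1.05 ± 0.21, 0.0441). Tspan6 was lower in ko pGM than in wt (-1.11 ± 0.13, edgeR adjusted p = 0.000134) and than in het pGM (-0.87 ± 0.13, 0.00343). Tspan17, which escorts the protease Adam10, was higher in ko HPC given PBS (2.36, edgeR adjusted p = 0.0373), and Tspan9 was lower with IL-1 in wt HPC (-1.37, edgeR adjusted p = 0.0386). Of the 14 tested across wt populations, and relative to HSC, 4 rose and 5 fell in HPC (15.8% and 14.3% of all genes). In pGM 2 rose and 7 fell (23.9% and 24.7%), and in GMP 2 rose and 9 fell (30.5% and 36.3%).

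Among 15 listed partners of tetraspanins (integrins, adhesion molecules, proteases and receptors), 2 of 13 tested were lower in ko HSC given PBS and 0 higher (0.562% and 0.236% of all genes). These were Itgb2, a leukocyte integrin subunit (log2 -1.29 ± 0.26, edgeR adjusted p = 0.026), and Vcam1, an adhesion molecule that is also on the macrophage marker list (-2.14 ± 0.42, 0.0207). Itgb2 was higher with IL-1 in wt HPC (1.31 ± 0.23, edgeR adjusted p = 0.00973). Fzd4, the receptor that Tspan12 assists, was lower in wt pGM and GMP than in HSC (-2.82 ± 0.78 and -4.14 ± 0.92, edgeR adjusted p = 0.00546 and 0.000526). Itga6, the laminin-binding integrin that pairs with Cd151, was lower in wt HPC, pGM and GMP than in HSC, by 1.45, 1.26 and 1.88 on the log2 scale (edgeR adjusted p 1.68e-06, 4.42e-06 and 8.27e-09).

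The protein-coding genes whose pattern over the 12 untreated group means was most like that of Tspan12 were Fez1 (Pearson r = 0.997), Dync1i1 (0.994), Olfr632 (0.993), Evc (0.992) and Cd248 (0.988), of 10509 genes compared. Over the 8 group means of the treatment experiment the same genes had r of 0.973, 0.977, 0.956, 0.929 and 0.927 with Tspan12. For Tspan7 they were Ptn (0.965), Rhoc (0.962), Fkbp14 (0.962), Fkbp10 (0.957) and Insrr (0.955), with 0.836, 0.897, 0.904, 0.859 and 0.888 in the treatment experiment. These are descriptions on log2 CPM, and the group means share the contrast of HSC with the other populations.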

How the data were processed

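Gene counts were deposited by the authors as raw whole-number counts of reads per gene in 1 table per experiment, and the submitters' processing notes name STAR 3.0.4 and featureCounts 1.4.5 of Subread. Genome build and strand setting were not given in the sources used here. Members, lists and tests were chosen with earlier results of these data known. The named genes were the 10 members, up to 4 other listed genes per comparison by smallest p, and the 5 genes most like Tspan12 and Tspan7. Non-mouse rows (3 in the untreated experiment) were dropped. Of 41388 gene IDs, 40340 were in GENCODE M21, which gave positions and exon lengths. edgeR 4.0.16 in R 4.3.3 was used on the counts with TMM scaling, filterByExpr (minimum count 10, minimum total 15), robust quasi-likelihood F tests and Benjamini-Hochberg adjustment over all genes tested, at 0.05. There were 8 fits: each untreated population with its 3 genotypes, HSC and HPC of the treatment experiment, and wt libraries across populations. Only the fit of HSC of the treatment experiment was first run on simulated counts. These had the same spread for every gene and changes in genes with higher counts only. That run does not speak for genes with few reads or a wide spread between libraries. Printed CPM share 1 TMM scale per experiment, so levels are not compared between experiments. Alternatives were RLE scaling, no filter, DESeq2 1.42.0, the replicate number as a block, a Y-linked covariate, 1 fit per experiment and leaving out each library. Replicate numbers correlated above 0.1 in every pair for 1 comparison, ko against wt HPC after IL-1 (r 0.16 to 0.37), so numbers were not used as pairs in the main fits. In the untreated experiment Xist in ko and Tspan32 followed the numbers across populations, and the population tests leave out any pairing of this kind.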

Additional observations from a re-analysis of the deposited data

Results flagged for a closer look

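Single values were checked in 135 combinations of a member and a group of 4 libraries, with a mean of at least 1 CPM. By Dixon's criterion 12 values stood apart from the other 3, where chance gives about 1 in 20 combinations. The combinations share libraries, so they are not independent. None of the 12 values was weighed further. Cd151 was high in ko HPC replicate 2, at 60.3 CPM against 24.8 to 30.8 CPM in the others. Cd151 was high in het HSC replicate 1, at 152 CPM against 32.3 to 38.5 CPM in the others. Cd53 was high in het GMP replicate 1, at 1570 CPM against 1130 to 1150 CPM in the others. Cd53 was high in ko HSC replicate 4, at 40.6 CPM against 11.7 to 15.9 CPM in the others. Cd53 was low in ko HSC given IL-1 replicate 2, at 66.5 CPM against 120 to 126 CPM in the others. Cd63 was high in het GMP replicate 1, at 1130 CPM against 478 to 578 CPM in the others. Cd63 was high in het HSC replicate 1, at 627 CPM against 417 to 452 CPM in the others. Cd81 was high in wt GMP replicate 2, at 557 CPM against 480 to 491 CPM in the others. Cd81 was low in ko HSC replicate 4, at 1380 CPM against 1550 to 1560 CPM in the others. Cd82 was high in wt HSC given PBS replicate 3, at 182 CPM against 139 to 141 CPM in the others. Cd9 was high in het GMP replicate 1, at 207 CPM against 110 to 120 CPM in the others. Cd9 was high in ko HSC given PBS replicate 4, at 283 CPM against 140 to 160 CPM in the others. Of these, 3 fell in the same library, het GMP replicate 1.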

How the results depend on the processing

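Of 40 called member results, 31 were called under every alternative run, and of 554 alternatives of these results 529 kept the call and 0 turned the direction. Counts of called members stayed within 1.5 times in 17 of 25 comparisons. Cd53 passed in ko against wt HSC given PBS (log2 -3.37 to -2.85) and in IL-1 against PBS in ko HSC (2.86 to 3.39) under every alternative. With DESeq2 the counts were 2 for ko against wt HPC, 3 for ko against wt pGM, 3 for ko against wt HSC given PBS, 1 for ko against wt HSC given IL-1 and 2 for IL-1 against PBS in wt HSC. With no filter on low counts they were 2 for ko against wt HSC given PBS and 1 for IL-1 against PBS in wt HSC. With the Y-linked covariate 0 members passed in ko against wt HPC. In 1 fit of all libraries, 1 passed in GMP against pGM, 1 in ko against wt HSC given IL-1 and 1 in IL-1 against PBS in wt HSC. With the replicate number as a block, 1 passed in IL-1 against PBS in wt HPC, Cd53, and no other count changed beyond 1.5 times. Tspan32 then passed as lower in wt pGM and GMP than in HSC (log2 -1.16 and -1.36, edgeR adjusted p = 6.04e-06 and 3.79e-07), in wt pGM than in HPC (-0.82, 0.000811) and in wt HPC than in HSC given PBS (-1.17, 0.00656). The Tspan32 standard error for GMP against HSC was 0.15 with the block and 0.53 without it. By the rule of r above 0.1 in every pair, the numbers paired the samples in ko against wt HPC after IL-1 only, where 0 passed with and without the block. That rule does not decide whether libraries of the same number came from the same animal. With 1 library left out, counts ran from 0 to 2 for ko against wt pGM, from 0 to 1 for ko against wt HSC given IL-1, from 0 to 1 for IL-1 against PBS in wt HSC and from 0 to 1 for IL-1 against PBS in ko HPC. Tspan12 in IL-1 against PBS in ko HSC was 0.15 and ran from -0.12 to 0.33 with 1 library left out, turning to -0.12 without ko PBS replicate 4, and none of these passed. The causes were not tested. Depth limits Tspan7 and Tspan12, which had too few reads for a test in pGM and GMP genotype comparisons.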
